A study of Rattus norvegicus with 6 samples.

Results

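Integrins are cell surface receptors made of an alpha and a beta chain, and the alpha chain largely sets which matrix protein the receptor binds. Of the 18923 genes counted in primary rat chondrocytes, the 10 described here encode alpha chains and were chosen by gene symbol. By ligand they form a collagen-binding class (Itga1, Itga2, Itga10 and Itga11), a laminin-binding class (Itga3 and Itga6), a class that binds the RGD motif of fibronectin, osteopontin and related proteins (Itga5, Itga8 and Itgav), and Itga9, which binds tenascin C, osteopontin and VCAM-1 at other motifs. All of them pair with the beta 1 chain, and Itgav also pairs with several other beta chains. In cartilage, Itga10 and Itga1 are the known collagen II and collagen VI receptors of chondrocytes, Itga5 is the fibronectin receptor, and the laminin receptors are best known from epithelia and basement membranes.

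The chondrocytes came from the cartilage of wild-type female Sprague-Dawley rats that were 24 h old, and were used at passage 1 or 2. The CON group was kept for 24 h in high-glucose DMEM with fetal bovine serum, and the RA group received 1 µM all-trans retinoic acid (RA), the vitamin A metabolite that binds the nuclear RAR receptors, in the same medium for 24 h. Each group had 3 samples, no vehicle was named for the CON group, and the study describes the samples as independent without naming the animal or culture of each. The p-values measure the spread between these samples. Library totals ran from 29370025 to 38007486 counted reads. Log2 CPM profiles correlated with those of the same group at a mean r of 0.981 for CON 1 and 0.986 to 0.993 for the other 5 samples. With the other group the mean r was 0.971 for CON 1, 0.984 for CON 2 and CON 3, and 0.979 to 0.980 for the RA samples. In these bulk cultures, fewer cells of a type and less RNA per cell cannot be told apart.

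In the RA group Itga3, Itga2, Itga8 and Itga6 rose, Itga9 fell, and Itga1, Itga5, Itga10, Itga11 and Itgav were not differentially expressed. A differentially expressed gene (DEG) had a Benjamini-Hochberg adjusted p below 0.05 in edgeR's quasi-likelihood test over 13438 genes and a log2 fold change (log2FC, RA against CON) beyond 0.58 in either direction. Each of the 10 chains was expressed highly enough to be tested, and DEGs made up 5 of the 10, beside 4.96% of all genes tested. The 4 higher chains stood beside 2.67% of genes called higher, and the single lower chain beside 2.29% called lower. By adjusted p alone 7 of the 10 passed, beside 9.82% of all genes. These were 5 higher chains, beside 5.31% of genes, and 2 lower chains, beside 4.5%. The FPKM ranges of the CON and RA samples did not overlap for any of the 10 chains, beside 32.2% of all genes, with 7 chains higher (18.9% of genes) and 3 lower in RA (13.3%). A log2FC above 0 was found for the same number, 7 of 10, beside 48.9% of genes. The median log2FC of the chains was 0.27, and that of all genes tested was -0.0057.

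**Figure D1:**
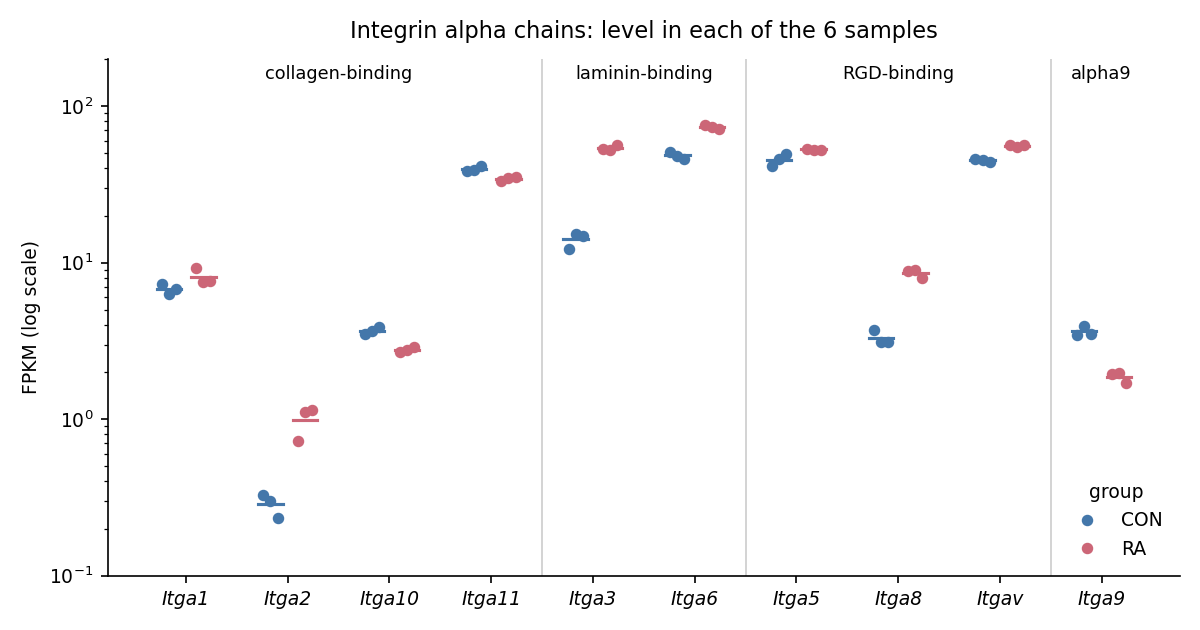
FPKM (log axis) of each of the 10 alpha chains in the 3 CON and 3 RA samples, 1 point a sample with the group mean as a short line, by ligand class. The points of Itga3 move from between 12.2 and 15.2 in CON to between 52.2 and 56.7 in RA, while Itga2 stays the lowest chain in both groups.

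Itga3 encodes the alpha 3 chain, a receptor for laminins that also associates with tetraspanins. Its level was 12.2, 15.2 and 14.7 FPKM (fragment count scaled by gene length and library total) in CON 1, 2 and 3, and 53.6, 52.2 and 56.7 FPKM in RA 1, 2 and 3. The groups were far apart relative to the spread within each, and the lowest RA sample was above the highest CON sample. The mean rose from 14.1 ± 1.60 to 54.2 ± 2.28 FPKM (SD, n = 3), with a log2FC of 1.93 (3.82-fold, SE 0.0923, edgeR adjusted p = 1.56e-05). Among the 10 chains Itga3 had the largest log2FC and the lowest p in the reported fit. It was a DEG in all 16 alternative fits, with a log2FC between 1.84 and 1.99 over the fits that left out 1 sample. Over the same fits the log2FC of Itga2 lay between 1.65 and 1.96, which overlaps that range.

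Itga6 encodes the alpha 6 chain, the other laminin receptor measured here, which pairs with the beta 1 chain and, in hemidesmosomes, with the beta 4 chain. It had the highest mean of the alpha chains in both groups, with overlap with Itga5 in CON, at 51.2, 48.2 and 46.0 FPKM in the CON samples and 76.1, 73.4 and 71.0 FPKM in the RA samples. Every RA sample was above every CON sample. The mean rose from 48.5 ± 2.60 to 73.5 ± 2.57 FPKM, with a log2FC of 0.59 (1.50-fold, SE 0.0585, edgeR adjusted p = 5.14e-04). This log2FC lay close to the threshold of 0.58 and was 0.58, 0.56 and 0.57 without CON 2, CON 3 and RA 1, which ended the DEG call by its size in those 3 fits. The adjusted p was at most 0.00657 in the 16 alternatives. Itga6 outnumbered Itga3 by 4.18, 3.16 and 3.12 times in the CON samples and by 1.42, 1.40 and 1.25 times in the RA samples, on the FPKM scale.

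The RGD-binding class held 1 DEG of its 3 members. Itga8, the receptor chain for nephronectin, fibronectin and osteopontin, was at 3.70, 3.11 and 3.10 FPKM in the CON samples and at 8.82, 9.03 and 7.98 FPKM in the RA samples. Even the lowest RA value was above 2 times the highest CON value. The mean rose from 3.30 ± 0.343 to 8.61 ± 0.554 FPKM (log2FC 1.37, 2.59-fold, SE 0.0910, edgeR adjusted p = 7.66e-05), and the DEG call held in 16 of 16 alternative fits. Itga5, the classical fibronectin receptor chain, was among the most abundant chains. It stood at 41.4, 45.8 and 49.5 FPKM in the CON samples and at 53.2, 52.8 and 52.9 FPKM in the RA samples. The CON samples spread widely and the RA samples hardly at all, with the lowest RA value only slightly above the highest CON value. The log2FC of Itga5 was 0.20 (SE 0.0762) and its edgeR adjusted p was 0.149, with a range over the alternatives from 0.0410, without CON 3, to 0.342. Itgav, the chain shared by the vitronectin and TGF-beta activating receptors, was at 46.0, 45.1 and 44.3 FPKM in CON and at 56.2, 54.8 and 56.3 FPKM in RA. Its samples were tight in both groups and did not overlap. The log2FC was 0.29 (SE 0.0528, edgeR adjusted p = 0.00974), so it passed the test but not the fold threshold. The adjusted p of Itgav lay above 0.05 in 4 of 16 alternatives and reached 0.0689 without RA 3.

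The collagen-binding class went in both directions. Itga2, best known from platelets and epithelia, was the scarcest of the 10 chains and rose most in this class. Its counts were 39, 35 and 34 reads in the CON samples and 83, 125 and 136 reads in the RA samples, which is 0.329, 0.301 and 0.232 FPKM against 0.725, 1.10 and 1.14 FPKM. RA 1 was the lowest of the RA samples and was still above every CON sample. The mean rose from 0.287 ± 0.0500 to 0.989 ± 0.230 FPKM, with a log2FC of 1.78 (3.43-fold, SE 0.247, edgeR adjusted p = 0.00298). Its standard error was the largest of the 10 chains. The call held in all 15 alternatives that tested it, and a minimum mean of 1 FPKM left it untested. By limma on log2(FPKM + 1), a scale that understates low genes, the log2FC of Itga2 was 0.62, just past the threshold.

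Itga1, a receptor chain for collagens IV and VI, was at 7.35, 6.33 and 6.74 FPKM in CON and at 9.27, 7.50 and 7.68 FPKM in RA. The groups came close to each other, and RA 1 stood above the other RA samples. The log2FC of Itga1 was 0.25 (SE 0.0989, edgeR adjusted p = 0.175), and 0.15 without RA 1. Its adjusted p ran from 0.0384, without CON 1, to 0.427 over the alternatives. The coding gene Pelo overlaps Itga1 in RefSeq's annotation of GRCr8, and whether the counting used strand is not stated, so its reads may be shared in part. Pelo, counted on its own row, had a log2FC of 0.14 (edgeR adjusted p = 0.411). Itga10, the chondrocyte receptor chain for collagen II, was at 3.52, 3.64 and 3.89 FPKM in CON and at 2.67, 2.77 and 2.91 FPKM in RA. All 3 RA samples were below all 3 CON samples. The log2FC was -0.42 (SE 0.0891, edgeR adjusted p = 0.0212), which passed the test but was smaller than the fold threshold. Its adjusted p lay above 0.05 in 6 of 16 alternatives and reached 0.103 without RA 1.

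Itga11, a receptor chain for fibrillar collagen in mesenchymal cells, was by far the most abundant of this class. It was at 38.3, 39.2 and 41.3 FPKM in CON and at 33.5, 34.5 and 35.3 FPKM in RA. The RA samples were all lower, by a small margin. The log2FC was -0.21 (SE 0.0613) with an edgeR adjusted p of 0.0666, and over the alternatives the adjusted p ran from 0.00826 to 0.232. Itga10 and Itga11, the pair of chains whose values were lower, had a ratio of Itga11 to Itga10 of 10.7 ± 0.137 in CON and 12.4 ± 0.236 in RA on the FPKM scale. The ratio of Itga11 to Itga1 went from 5.84 ± 0.542 to 4.27 ± 0.566.

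Itga9 was the single chain called lower. It was at 3.48, 3.92 and 3.51 FPKM in the CON samples and at 1.94, 1.96 and 1.69 FPKM in the RA samples. The groups were well separated, and each was tight. The mean fell from 3.64 ± 0.248 to 1.86 ± 0.148 FPKM, with a log2FC of -0.98 (1.97-fold lower, SE 0.116, edgeR adjusted p = 0.00136). The call held in 16 of 16 alternatives, with a log2FC between -1.02 and -0.91 when single samples were left out. In CON, Itga9, Itga10 and Itga8 were at the same level within their spread, with means of 3.64, 3.68 and 3.30 FPKM. In RA, these 3 chains stood apart at 1.86, 2.78 and 8.61 FPKM and their ranges did not overlap.

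**Figure D2:**
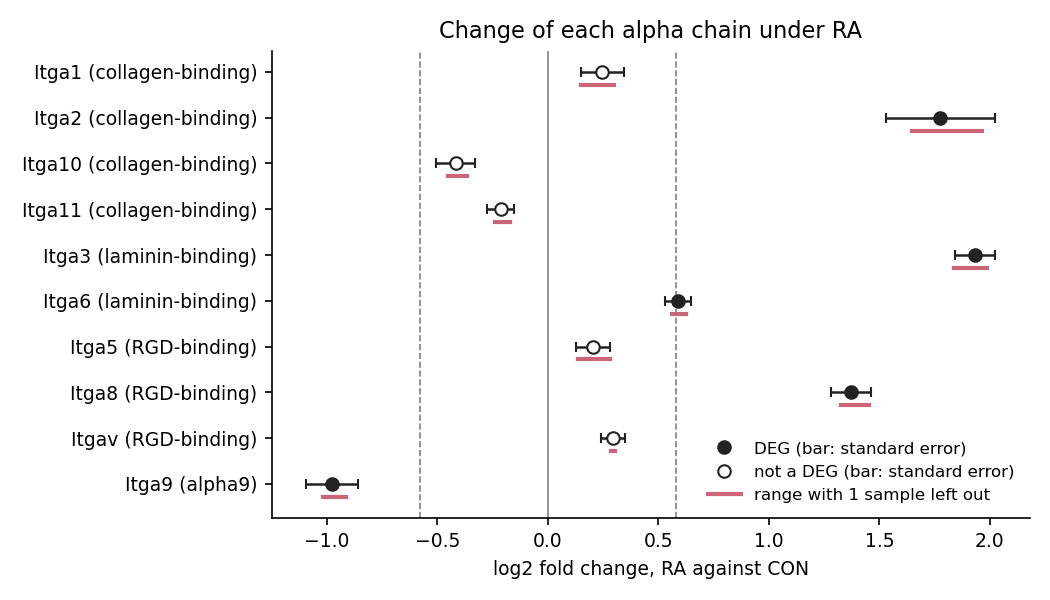
Log2 fold change of each alpha chain (RA against CON) with its standard error as bars, grouped by ligand class. Dashed lines mark the DEG threshold of 0.58 in either direction, and Itga3, Itga2, Itga8 and Itga6 lie above it while Itga9, at -0.98, lies below.

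To show the sequence before the start sites of the chains that changed most, the 250 bases upstream are printed for Itga3, Itga8 and Itga2, which rose, and for Itga9, which fell. The sequences are RefSeq promoters of the assembly GRCr8, read 5′ to 3′ on the gene's strand, and were found for 9 of the 10 chains, all but Itga6. Capitals mark GGGCGG or its reverse complement CCGCCC, the GC box bound by Sp1 family factors. The Itga3 window lies at chr10:80518902-80519151 on the minus strand and precedes a start site 3647 bases inside the outermost RefSeq end of the gene. The Itga8 window lies at chr17:80410634-80410883 on the minus strand, and the Itga2 window at chr2:48354510-48354759 on the minus strand. The Itga9 window lies at chr8:127185039-127185288 on the plus strand, before a start site 45 bases inside the outermost end.
Itga3: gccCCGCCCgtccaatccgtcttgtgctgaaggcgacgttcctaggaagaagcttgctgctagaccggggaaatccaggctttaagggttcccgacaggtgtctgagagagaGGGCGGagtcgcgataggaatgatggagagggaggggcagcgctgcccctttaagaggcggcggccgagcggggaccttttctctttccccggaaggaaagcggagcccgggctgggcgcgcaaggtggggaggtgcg
Itga8: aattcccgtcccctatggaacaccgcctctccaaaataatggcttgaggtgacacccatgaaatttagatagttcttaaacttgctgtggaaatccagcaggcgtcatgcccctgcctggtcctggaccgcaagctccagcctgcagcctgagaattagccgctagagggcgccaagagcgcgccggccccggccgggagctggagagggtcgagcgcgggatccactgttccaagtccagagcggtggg
Itga2: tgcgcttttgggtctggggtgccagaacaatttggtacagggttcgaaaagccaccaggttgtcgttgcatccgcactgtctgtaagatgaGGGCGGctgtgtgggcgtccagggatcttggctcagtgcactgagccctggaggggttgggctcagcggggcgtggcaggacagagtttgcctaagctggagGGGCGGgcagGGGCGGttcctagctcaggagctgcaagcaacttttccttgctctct
Itga9: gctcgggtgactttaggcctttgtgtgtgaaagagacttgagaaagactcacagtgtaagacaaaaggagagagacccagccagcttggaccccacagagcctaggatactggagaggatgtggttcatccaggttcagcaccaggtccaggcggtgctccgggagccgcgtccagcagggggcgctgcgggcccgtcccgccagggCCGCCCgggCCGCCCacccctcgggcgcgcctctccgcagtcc

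A GC box lay in 6 of the 9 windows, beside 30.5% of 33469 rat promoter windows of the same length. Itga3 had 2 matches, beginning 247 and 138 bases before the start site. Itga2 had 3 matches at 159, 57 and 47 bases, and Itga9 had 2 at 43 and 34 bases. The window of Itga8, which rose 2.59-fold, held none. The exact string AGGTCA on either strand, a form of the half-site of retinoic acid receptors, was in none of the 9 windows and in 14.1% of all. Variant forms of this half-site were not searched. TATAAA was also in none of the 9, beside 12.9% of all. AACAAT, a core motif of SOX factors, was found in the Itga2 window alone, beside 10.3% of all. The 9 windows had 49.6% to 72% G and C bases (median 60%), above the median of 51.2% over all windows in 8 of 9. These matches describe letters in the windows and do not show binding. On chromosome 2, Itga1 and Itga2 are neighbouring coding genes, and their log2FC values were 0.25 and 1.78.

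The changes altered the order of the levels. In CON, Itga6, Itga5 and Itgav led with mean levels of 48.5, 45.5 and 45.1 FPKM and overlapped with their neighbours in that order. Itga11 followed at 39.6 FPKM, then Itga3, Itga1, the group of Itga10, Itga9 and Itga8, and Itga2. In RA, Itga6 stood alone at 73.5 FPKM, and Itgav, Itga3 and Itga5 followed at 55.8, 54.2 and 53.0 FPKM with overlapping ranges. Itga3 moved from below Itga11 to the level of Itga5 and Itgav. Itga8 moved from below Itga1 to its level, and their ranges overlapped around means of 8.61 and 8.15 FPKM.

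Summed over the 10 chains, FPKM came to 207, 211 and 213 in CON 1 to 3 and to 296, 290 and 294 in RA 1 to 3. The mean went from 210 ± 2.90 to 293 ± 3.00 FPKM, with no overlap. The laminin-binding pair held 30.6%, 30.1% and 28.5% of that sum in CON 1, 2 and 3 and 43.8%, 43.3% and 43.5% in RA 1, 2 and 3. That is a gain of 13.8 percentage points, from 29.7% ± 1.09 to 43.5% ± 0.259, and the samples of each group lay close together. Itga3 alone went from 6.68% ± 0.694 to 18.5% ± 0.726 of the sum, while Itga6 stood at 23.0% ± 1.55 and 25.1% ± 0.789.

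The collagen-binding class held 23.9%, 23.5% and 24.4% of the sum in CON and 15.6%, 15.8% and 16.0% in RA, a difference of -8.12 percentage points. The RGD-binding class held 43.9%, 44.6% and 45.4% in CON and 39.9%, 40.2% and 39.9% in RA, a difference of -4.61 points, although each of its members had a log2FC above 0. Itga9 went from 1.73% to 0.636% of the sum. A share can fall while the level of its members does not, since all shares sum to the whole. The ranges of every class were apart between the groups, and with 3 against 3 samples the smallest p that a two-sided exact permutation test allows is 0.1. Itga5, Itga6, Itga11 and Itgav together made up 84.9% ± 0.341 of the sum in CON and 73.9% ± 0.450 in RA.

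**Figure D3:**
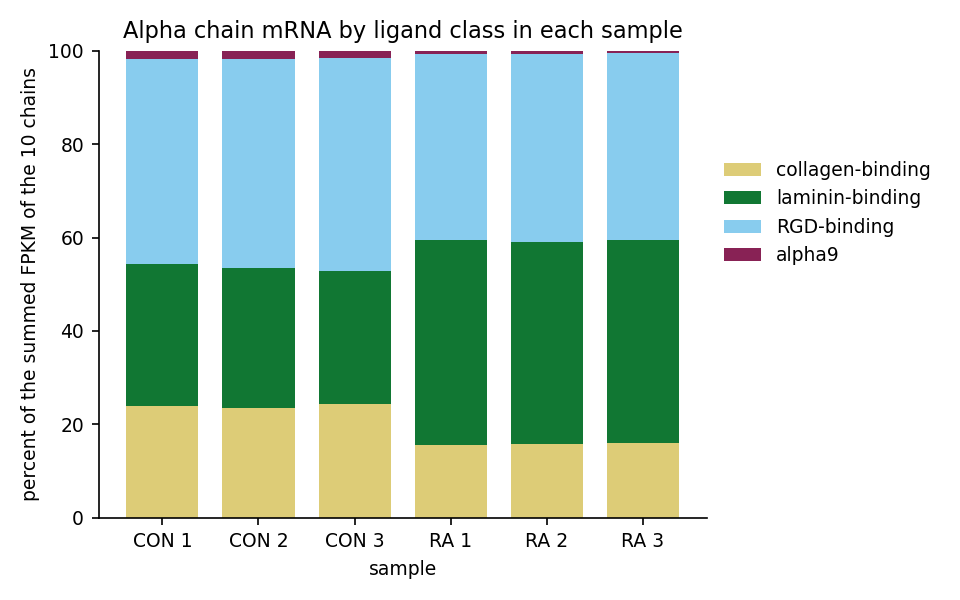
Percent of the summed FPKM of the 10 alpha chains held by each ligand class in each sample, as stacked bars from 0 to 100. The laminin-binding segment is between 28.5% and 30.6% in the CON samples and between 43.3% and 43.8% in the RA samples.

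Within the RGD-binding class the balance between members also moved. Itga5 exceeded Itga8 by 14.0 ± 2.48 times in CON and by 6.17 ± 0.404 times in RA. The ratio of Itga5 to Itgav was 1.01 ± 0.109 in CON and 0.950 ± 0.0130 in RA, within the spread of the CON samples.

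Of 8 beta chains listed, 5 were tested and 0 were DEGs in edgeR, DESeq2 or limma, with 1 at an unadjusted p below 0.05, which 24% of all genes tested reached. That chain was Itgb1, the common partner, at 397, 353 and 337 FPKM in CON and at 462, 425 and 432 FPKM in RA. Every RA sample was above every CON sample. The log2FC of Itgb1 was 0.27 (SE 0.0664, edgeR adjusted p = 0.0399), below the fold threshold, and the adjusted p ranged from 1.29e-04 to 0.158 over the alternatives. Itgb1 FPKM divided by the summed alpha chain FPKM was 1.91, 1.68 and 1.58 in CON and 1.56, 1.47 and 1.47 in RA. Itgb5, a partner of Itgav, was at 41.6 ± 2.19 and 43.6 ± 1.81 FPKM (log2FC 0.05, edgeR adjusted p = 0.673). Itgb3 and Itgb8, other partners of Itgav, were below 1 FPKM in all samples, with log2FC values of -0.57 (edgeR adjusted p = 0.216) and 0.10 (0.840). Itgb4, the hemidesmosomal partner of Itga6, was at 0.218 ± 0.0836 and 0.220 ± 0.0721 FPKM. Itgb2, Itgb6 and Itgb7 fell below the filter.

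Of 8 other alpha chains, 7 were matched and 5 were tested. Itgax, the leukocyte alpha X chain, was the DEG among them, beside 4.96% of all genes tested. It was at 0.815, 0.667 and 0.557 FPKM in CON and at 2.59, 2.57 and 3.33 FPKM in RA. The groups did not overlap, and the log2FC was 2.05 (SE 0.176, edgeR adjusted p = 2.37e-04). Its partner Itgb2 was at 0.0460 ± 0.0154 and 0.0492 ± 0.0374 FPKM. The leukocyte markers measured, 7 of 8 listed, summed to between 13.2 and 14.6 FPKM in CON and between 16.1 and 17.3 FPKM in RA. Of these 5 stayed below 1 FPKM in every sample, among them Ptprc at 0.0152 and 0.0111 FPKM and Csf1r at 0.0864 and 0.171 FPKM. Nearly all of the sum was Cd14, at 12.9 ± 0.834 FPKM in CON and 15.3 ± 0.663 FPKM in RA (log2FC 0.23, edgeR adjusted p = 0.138), and Cd68, at 1.05 ± 0.125 and 1.28 ± 0.0277 FPKM (log2FC 0.27, edgeR adjusted p = 0.466). Every RA sample was above every CON sample for both. The part of such cells in the Itgax result was not tested.

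**Figure D4:**
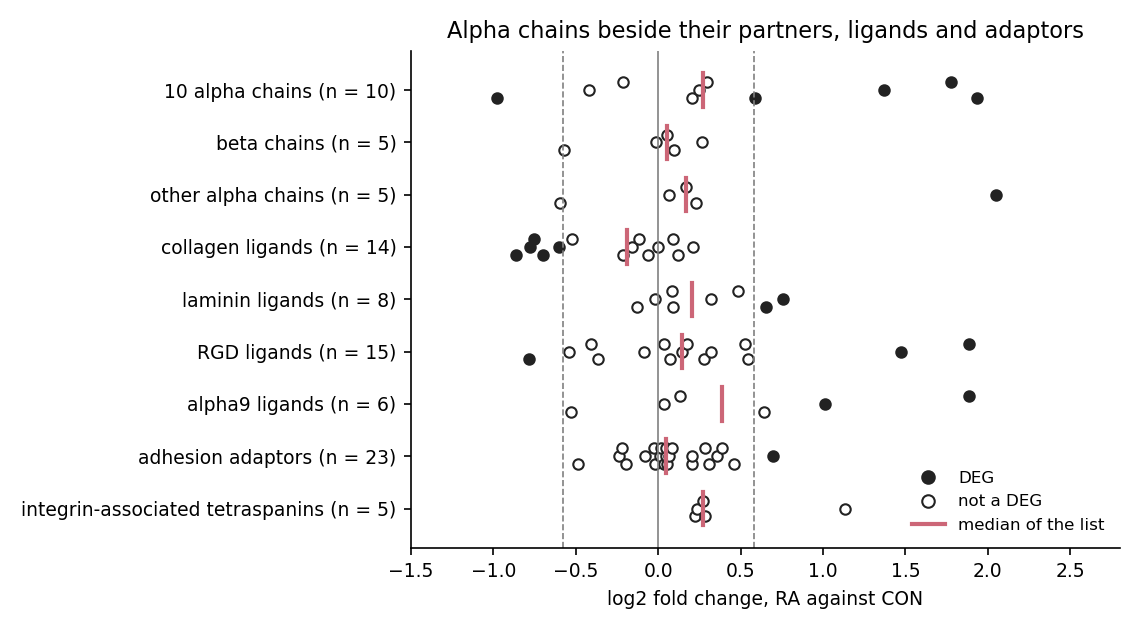
Log2 fold change (RA against CON) of each tested gene in the alpha chains and in the lists of beta chains, other alpha chains, ligands, adaptors and tetraspanins. Filled points are DEGs, open points are not, the short vertical line is the median of the list, and dashed lines mark 0.58 in either direction; the medians run from -0.19 for collagen ligands to 0.39 for alpha 9 ligands.

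The ligands of each class were counted from lists of matrix genes. The share to set beside the DEGs of each list is 4.96% of all genes tested, with 2.67% higher and 2.29% lower. Of 16 collagen genes, 14 were matched and tested, and 5 of them were DEGs, all lower (median log2FC -0.19, and -0.12 without CON 3, beside -0.0057 for all genes). Col9a1 and Col9a2, chains of the cartilage collagen IX, had a log2FC of -0.86 (SE 0.0537, edgeR adjusted p = 5.59e-05) and -0.76. Col2a1, the main cartilage collagen, fell from 5420.1 ± 961 to 3185 ± 141 FPKM (log2FC -0.78, SE 0.119, edgeR adjusted p = 0.00457), and CON 1 at 4328 FPKM was the lowest CON sample. Col11a2 and Col11a1, of the cartilage collagen XI, had a log2FC of -0.70 and -0.60. The call of Col11a2 was lost without CON 2, RA 1 or RA 2, where its adjusted p was 0.0619, 0.0709 and 0.0587, and that of Col11a1 was lost without CON 1, where its log2FC was -0.56. Of the other 9 genes, Col9a3 passed by adjusted p alone.

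Of 11 laminin genes, 10 were matched, 8 were tested and 2 were DEGs, both higher (median log2FC 0.20, and 0.088 without CON 1 or 0.39 without CON 3). Lamb3, a chain of an epithelial laminin that the alpha 3 and alpha 6 receptors bind, was at 1.76, 2.22 and 2.59 FPKM in CON and at 3.80, 3.71 and 3.75 FPKM in RA (log2FC 0.76, SE 0.144, edgeR adjusted p = 0.0128). Its call was lost without CON 2 (adjusted p = 0.0574) and without any single RA sample, where the adjusted p was between 0.0546 and 0.0582. Lamb3 was higher in every RA sample, at a low level. Lamc1, the most abundant laminin chain, was at 63.0 ± 2.43 and 67.5 ± 1.43 FPKM (log2FC 0.09, edgeR adjusted p = 0.408).

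Of 18 symbols listed for RGD ligands, 16 were matched, 15 were tested and 3 were DEGs, 2 higher and 1 lower (median log2FC 0.14, and 0.049 without CON 1). Spp1, which encodes osteopontin, was at 845, 919 and 820 FPKM in CON and at 3300.2, 3059 and 3264 FPKM in RA, with a log2FC of 1.88 (SE 0.0560, edgeR adjusted p = 2.34e-06). It is also a ligand of the alpha 9 chain, which fell in the same samples. Ibsp, bone sialoprotein, rose at a low level from 0.550 ± 0.109 to 1.54 ± 0.309 FPKM (log2FC 1.47, edgeR adjusted p = 0.00622). Edil3, a secreted RGD protein, fell from 26.1 ± 4.90 to 15.2 ± 1.15 FPKM (log2FC -0.79, edgeR adjusted p = 0.00565). Fn1, fibronectin and the most abundant gene of this list, was at 5335 ± 357 and 6524 ± 162 FPKM. Its log2FC of 0.28 was below the threshold (edgeR adjusted p = 0.0161, between 0.00139 and 0.104 over the alternatives). Npnt, nephronectin, the ligand for which the alpha 8 chain is best known, was at 2.38 ± 0.536 and 1.65 ± 0.546 FPKM (log2FC -0.54, edgeR adjusted p = 0.256).

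Of 6 alpha 9 ligands, all were tested and 2 were DEGs, both higher (median log2FC 0.39). They were Spp1 and Vegfc, a lymphatic growth factor, which was at 2.81, 2.52 and 2.53 FPKM in CON and at 5.17, 6.03 and 4.84 FPKM in RA. The log2FC of Vegfc was 1.01 (SE 0.127, edgeR adjusted p = 0.00170), the groups did not overlap, and without CON 1 this list held 4 DEGs. Tnc, tenascin C, was at 160 ± 6.69 and 166 ± 0.919 FPKM (log2FC 0.03, edgeR adjusted p = 0.746).

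Inside the cell, the tails of integrins are tied to actin by talin, kindlin, the ILK complex and other adaptors. Of 25 adaptor genes 23 were tested, and 1 was a DEG (median log2FC 0.05), a share no higher than the 4.96% of all genes. It was Parvb, beta-parvin of the ILK complex, at 7.66, 8.15 and 8.76 FPKM in CON and at 13.0, 13.5 and 13.8 FPKM in RA. The groups did not overlap, and the log2FC was 0.70 (SE 0.0759, edgeR adjusted p = 8.48e-04). Dab2, an adaptor in integrin endocytosis and the most abundant of the list, had a log2FC of -0.22 (edgeR adjusted p = 0.146), and -0.12 without CON 1. Of 8 tetraspanins that associate with integrins, 5 were tested and 0 were DEGs in edgeR, DESeq2 or limma, with 3 at an unadjusted p below 0.05, beside 24% of all genes tested (median log2FC 0.27). Cd63, the most abundant of them, was at 339 ± 20.1 and 416 ± 6.76 FPKM (log2FC 0.28, edgeR adjusted p = 0.0234, between 0.00197 and 0.123 over the alternatives). Cd151, the tetraspanin best known as a partner of the alpha 3 chain, was at 1.06 ± 0.651 and 2.40 ± 2.04 FPKM, and RA 2 at 4.75 FPKM stood far above the other samples.

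The genes whose log2 CPM followed Itga3 most closely over the 6 samples, among 11341 genes, were Glud1 (r = 0.99976), Insyn1 (r = 0.999) and Axl (r = 0.998), with log2FC values of 0.77, 1.07 and 0.68. For Itga9 they were Stat2, Dact1 and Akap8l (r = 0.997, 0.997 and 0.996), with log2FC values of -0.35, -1.26 and -0.41. The points share the same 6 libraries and fall into the CON and RA groups.

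Genes of the retinoid response moved with the treatment labels. Of 10 listed, 7 were DEGs, beside 4.96% of all genes tested, with 6 higher (2.67% of genes) and 1 lower (2.29%). Cyp26a1 and Cyp26b1, the enzymes that clear RA, had log2FC values of 3.35 and 2.65 (edgeR adjusted p = 2.13e-04 and 1.18e-05). Tgm2 and Dhrs3 were also higher, with log2FC values of 0.91 and 0.63, and Tgm2 was not called without RA 3 (adjusted p = 0.0574). The lower gene was Rarres1 (log2FC -0.87), which was not called without RA 1 or RA 2 (adjusted p = 0.0636 and 0.0613).

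The chondrocyte label was checked with 10 markers, which summed to between 6723 and 8808 FPKM in CON and between 4228 and 4558 FPKM in RA. Of these 9 were DEGs, beside 4.96% of all genes tested, and all were lower in RA, beside 2.29% called lower and 2.67% called higher. Acan, the cartilage proteoglycan aggrecan, had a log2FC of -1.51. Fibroblast and perichondrium markers summed to between 3855 and 5050 FPKM in CON and between 4938 and 5200 FPKM in RA, with 1 higher and 1 lower DEG among 9. Smooth muscle and pericyte markers summed to between 512 and 560 FPKM in CON and between 431 and 468 FPKM in RA, with 1 lower DEG among 6 tested. Endothelial markers summed to at most 8.03 FPKM in any sample, with Emcn at 0 in all. Epithelial markers summed to at most 5.50 FPKM. Skeletal muscle markers summed to between 5.21 and 7.17 FPKM in CON and between 7.54 and 8.37 FPKM in RA, mostly Des, with 1 higher DEG among 3 tested. That gene was Myod1, a muscle transcription factor, at 0.0932 ± 0.0245 and 0.366 ± 0.0768 FPKM (log2FC 1.93, SE 0.377, edgeR adjusted p = 0.0142), and it was not called without CON 2, RA 1 or RA 2 (adjusted p = 0.0666, 0.0728 and 0.0662). In each of the endothelial, epithelial and skeletal muscle lists, 5 genes stayed below 1 FPKM in every sample. Schwann cell markers summed to between 277 and 327 FPKM in CON and between 176 and 186 FPKM in RA, nearly all of it S100b, which chondrocytes also express, while Sox10 stayed below 1 FPKM. All 10 chondrocyte markers had a log2FC below 0, while 7 of the 10 alpha chains had one above 0. The part of the chondrocyte markers in the alpha chain results was not tested.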

How the data were processed

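Poly(A) RNA of 3 CON and 3 RA samples was sequenced on an Illumina instrument (NEBNext Ultra libraries). The authors deposited a table per sample with raw read counts per gene and FPKM values, which equal the count per gene length and total count within 1% for 100% of genes. The submitters' processing notes name HISAT2, HTSeq 0.13.5 and Rnor_6.0. The annotation and the strand setting are not given in the sources used here. In the files, 158 identifiers share a symbol with another, none of them an alpha chain or a list gene.

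Counts were tested with edgeR 4.0.16 in R 4.3.3 (TMM, filterByExpr with a minimum count of 10, glmQLFTest, no covariates, Benjamini-Hochberg over 13438 genes), and DEGs had an adjusted p below 0.05 and a log2FC beyond 0.58. The common biological coefficient of variation was 0.122. FPKM gave levels and shares, as mean ± SD over 3 samples. Folds of RA against CON are the edgeR log2FC on a linear scale, not ratios of mean FPKM. The script was tested on simulated data. The alternatives were other scalings and filters, DESeq2 1.42.0, limma 3.58.1 on log2(FPKM + 0.1) and log2(FPKM + 1), other thresholds, a replicate block, and each sample left out in turn. The floor of 3 counts behind a value of 0 is 0.0789 to 0.102 CPM, for counting error only.

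The alpha chains and all lists were chosen with earlier results of these data known. Named were all 10 chains, Itgb1, the DEGs of the beta and other alpha chains, in each further list up to 4 DEGs a direction (mean FPKM 1 or more) and the most abundant gene, and the 3 genes most correlated with the chain of lowest p in each direction. The other beta chains, Pelo, Col11a1, Col9a3, Npnt, Tnc, Cd151 and the cell type markers named were chosen after their values were seen. Listed symbols with no match in the files were not analysed here, and some list genes are counted but not reported singly. Promoters came from the RefSeq table of GRCr8, and counts carry no coordinates.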

Additional observations from a re-analysis of the deposited data

How the results depend on the processing

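Over all genes 667 DEGs were called, with 434 by limma on log2(FPKM + 1), 1319 by adjusted p alone, 1017 by unadjusted p with the fold threshold, and 480 to 755 when each sample was left out. Among the 10 alpha chains 5 were DEGs in the reported fit and 4 to 5 when each sample was left out, since Itga6 fell below 0.58 without CON 2, CON 3 or RA 1. A minimum mean of 1 FPKM left 4, with Itga2 untested, and adjusted p alone gave 7. No log2FC, share difference or list median recomputed under the alternatives changed sign, except the median of the other alpha chains (0.17), which ran from -0.074, without RA 3, to 0.20 when each sample was left out. That median was 1.11 with a mean of at least 1 FPKM, 0.069 with no filter and 0.030 by limma on log2(FPKM + 1). The genes named outside the rule were not recomputed under every alternative. Further list medians moved by over 1.5 times, among them those of the laminin ligands (0.40 with no filter, 0.32 with a mean of at least 1 FPKM), the beta chains (0.054, from 0.033 to 0.21 when each sample was left out) and, by limma on log2(FPKM + 1), the alpha 9 ligands (0.25) and retinoid genes (0.46). The counts of called genes moved to 1 for laminin ligands by limma on log2(FPKM + 1) and to 7, 4, 1 and 2 for RGD ligands, adaptors, beta chains and tetraspanins by adjusted p alone. Without CON 2 or any RA sample the laminin ligands also held 1, and without CON 1 the alpha 9 ligands held 4. By adjusted p alone Itgav, Itga10, Itgb1, Fn1 and Cd63 passed, with log2FC values of 0.29, -0.42, 0.27, 0.28 and 0.28. By limma on log2(FPKM + 1) Tgm2 had a log2FC of 0.52 and was not called. Shares from summed counts instead of FPKM, which weight long transcripts more, gave differences of -8.66 points for the collagen-binding class and -0.751 for Itga9. When each sample was left out, the differences ran from -8.35 to -7.86 (collagen-binding), 13.2 to 14.2 (laminin-binding), -4.98 to -4.21 (RGD-binding) and -1.13 to -1.03 points (Itga9). Itga2, with 34 to 136 reads a sample, was the chain most limited by depth.

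Whether the replicate numbers pair the samples is not stated and cannot be told from 3 samples a group. The correlation of deviations from group means was 0.160, -0.0542 and 0.0343 between same-numbered CON and RA samples. Between differently numbered samples it ran from -0.197 to 0.163. With a replicate block, 684 genes and 5 alpha chains were DEGs.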
